A study of Mus musculus with 11 samples.

Results

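Of 38509 accessible regions (peaks) measured by ATAC-seq in mouse CD4 T cells, 1573 were lower in anergic cells than in each of 3 other CD4 subsets, and these 1573 peaks are described here. ATAC-seq marks open DNA with a transposase, and the signal of a peak follows the number of insertions in it. The rule took, for each peak, the mean of log2(signal + 1) over the libraries of a group, and kept a peak where the mean of the anergic libraries was at least 0.8 below the mean of every other group. The smallest of the 3 differences is called the margin below, and a peak that met the rule is called a member. Members were thus chosen by the measured values of all 11 libraries, so the low signal of anergic cells in them is a description and was not tested. Members made up 4.08% of all peaks. The opposite rule, at least 0.8 higher in anergic cells than in each other group, selected 2313 peaks (6.01% of all), which serve as a comparison.

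Cells were freshly isolated from mixed spleen and lymph node of untreated mice, and all groups carried the same genotype, wildtype C57BL/6 with a Foxp3-GFP reporter and a polyclonal T cell repertoire. Naive cells (2 libraries) were sorted as CD44low. Teff cells (3 libraries) were antigen-experienced CD44high cells without FOXP3, sorted as CD73low FR4low. Anergic cells (3 libraries) came from the same CD44high gate without FOXP3, but were CD73high, FR4high and NRP1+. Treg cells (3 libraries) were FOXP3+ CD25+. Anergic cells were thus defined by surface markers and not by a test of their response. Whether replicates came from different animals is not given in the labels, and p-values therefore refer only to how much these libraries varied, which may be technical.

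Anergic T cells persist after meeting self antigen without full co-stimulation and respond poorly when they meet it again. Most regulatory DNA that differs between T cell subsets lies away from start sites, in enhancers bound by transcription factors of the ETS, RUNX, TCF/LEF, AP-1 and NFAT families, and ATAC-seq reads how easily the transposase reaches such an element. Satb1, Bach2, Lef1, Foxp1 and Klf2 encode transcription or chromatin factors known for keeping naive T cells quiescent and for their identity. Bcl2l11 encodes BIM, a BCL2 family protein that starts cell death, and is named together with the AP-1 family factor BATF in the title of the study.

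The reference sequences of 7 members are printed as examples of the DNA in which motifs and repeats were counted further on, each of which is found in a minority of members: the 4 members with the largest margins among those that met the terms for being named, and, for Satb1, Lef1 and Bcl2l11, the member with the largest margin whose printed bases lie outside exons. Each is the plus strand of GRCm38 from RefSeq, whole for peaks of up to 300 bases and otherwise the central 300 bases, in lower case with exact matches to any of the 20 motifs searched in capitals.
Il4ra, 10.2 kb upstream, intergenic, chr7:125541936-125542197: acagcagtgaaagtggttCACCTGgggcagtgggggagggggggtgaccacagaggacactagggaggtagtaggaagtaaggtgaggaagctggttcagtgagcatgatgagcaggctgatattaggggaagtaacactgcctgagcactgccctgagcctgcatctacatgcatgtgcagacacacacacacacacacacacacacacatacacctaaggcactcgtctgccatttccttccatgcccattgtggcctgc
Manba, intron, chr3:135516972-135517271: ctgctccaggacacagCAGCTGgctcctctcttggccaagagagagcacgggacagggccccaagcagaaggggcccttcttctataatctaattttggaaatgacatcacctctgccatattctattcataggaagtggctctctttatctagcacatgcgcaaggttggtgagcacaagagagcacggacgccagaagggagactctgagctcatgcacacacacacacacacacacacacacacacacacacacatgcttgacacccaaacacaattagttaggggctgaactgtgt
St6galnac5, intron, chr3:152941789-152941944: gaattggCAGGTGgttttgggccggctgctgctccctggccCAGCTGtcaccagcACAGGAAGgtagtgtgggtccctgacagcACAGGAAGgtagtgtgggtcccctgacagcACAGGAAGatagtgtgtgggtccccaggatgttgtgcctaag
Vtcn1, 13.4 kb upstream, intergenic, chr3:100811933-100812132: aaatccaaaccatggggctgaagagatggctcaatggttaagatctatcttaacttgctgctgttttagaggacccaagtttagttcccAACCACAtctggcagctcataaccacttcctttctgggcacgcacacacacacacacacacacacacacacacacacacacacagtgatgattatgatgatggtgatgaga
Satb1, intron, chr17:51802632-51802730: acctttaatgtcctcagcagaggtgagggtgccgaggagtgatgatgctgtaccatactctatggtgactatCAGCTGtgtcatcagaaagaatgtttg
Lef1, 83.8 kb upstream, intergenic, chr3:131026347-131026646: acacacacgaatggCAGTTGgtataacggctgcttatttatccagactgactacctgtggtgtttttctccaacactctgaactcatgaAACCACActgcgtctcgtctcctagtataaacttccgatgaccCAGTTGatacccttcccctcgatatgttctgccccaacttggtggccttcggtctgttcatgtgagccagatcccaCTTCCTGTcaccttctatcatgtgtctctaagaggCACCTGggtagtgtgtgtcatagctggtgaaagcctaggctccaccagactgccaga
Bcl2l11, intron, chr2:128153246-128153545: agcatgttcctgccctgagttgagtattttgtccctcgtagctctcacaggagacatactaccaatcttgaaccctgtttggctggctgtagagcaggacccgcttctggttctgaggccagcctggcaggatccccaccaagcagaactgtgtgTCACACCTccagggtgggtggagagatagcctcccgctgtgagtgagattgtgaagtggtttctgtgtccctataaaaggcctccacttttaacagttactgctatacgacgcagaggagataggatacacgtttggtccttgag
The St6galnac5 peak holds 3 copies of the ETS motif ACAGGAAG, the Lef1 peak holds 1 ETS and 1 RUNX match, and runs of alternating C and A stand in the Il4ra, Manba and Vtcn1 peaks.

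Signal in anergic cells was reduced in the members rather than absent. The median signal per member was 182 in naive, 123 in Teff, 128 in Treg and 46.8 in anergic cells, whereas over all peaks the group medians lay between 211 and 218. The anergic mean of a member was 48.4% of the lowest other group's mean at the median, with quartiles of 41.4% and 53.7%. It was under 50 units of signal in 836 members (53.2%, against 7.07% of all peaks) and above 500 in 34. It exceeded the median of all peaks in 110 members. Only 2 to 7 members per anergic library stood at 1 read, the lowest value in the table, and the median member had 33, 92 and 57 reads in anergic replicates 1, 2 and 3. In bulk libraries such as these, fewer cells with an open site and less opening per cell cannot be told apart.

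**Figure D1:**
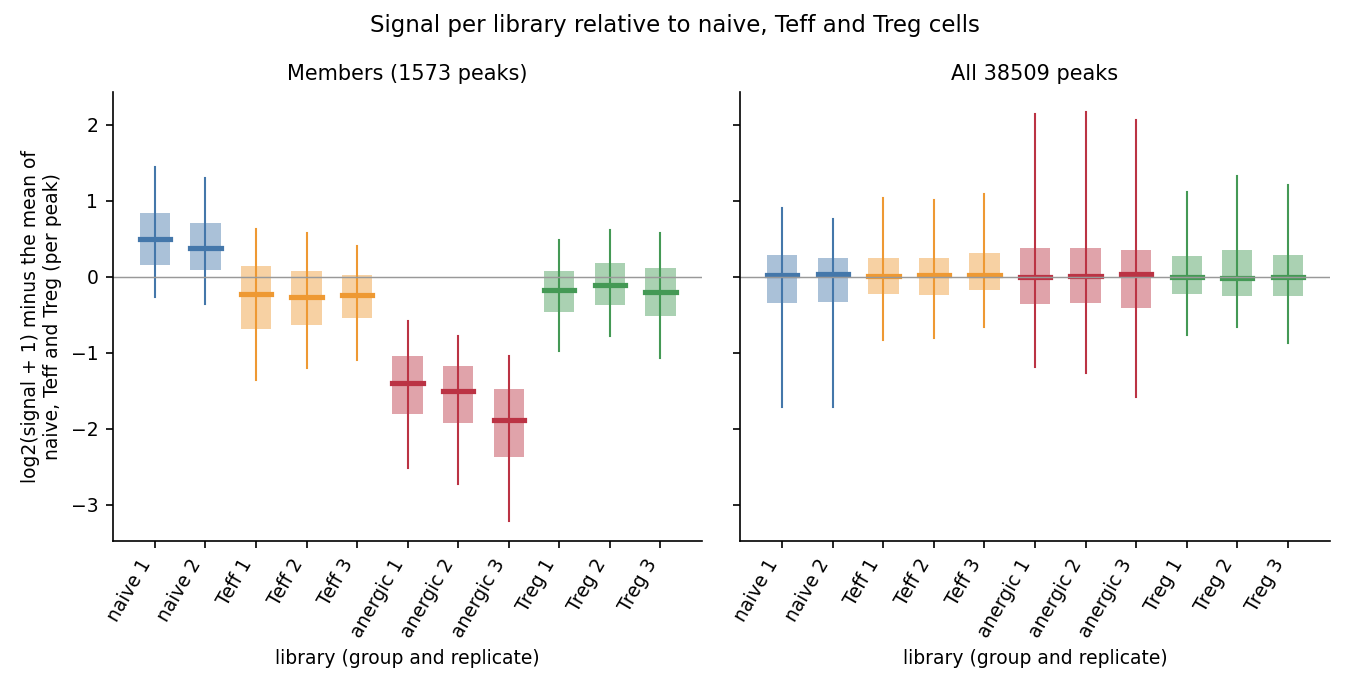
Signal of the members (left) and of all peaks (right) in each of the 11 libraries, as log2(signal + 1) minus the mean of the naive, Teff and Treg groups for the same peak. Thick lines are medians, bars run from the lower to the upper quartile and thin lines from the 5th to the 95th percentile of peaks. In the members the 3 anergic medians lie at -1.40, -1.50 and -1.89, and over all peaks every library's median lies between -0.02 and 0.04.

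The margin had a median of 1.07 and reached 2.79. It was 1 or more in 955 members and 2 or more in 47. At the threshold, a peak near Smad7 stood just inside with a margin of 0.8001 (group means of 1282 in naive, 641 in Teff, 380 in anergic and 698 in Treg). A peak near Top2a stood just outside with a margin of 0.7998 (139, 68.6, 39.1 and 93.2). The margin lay between 0.8 and 0.9 in 347 members, and 424 peaks outside the rule had margins between 0.7 and 0.8. In 1267 members (80.5%) every anergic library was below all 8 other libraries, which held for 7.33% of all peaks. By limma (adjusted p under 0.05), 1560 members were lower in anergic cells than in naive, 1424 than in Teff and 1476 than in Treg cells. Over all peaks the shares lower in these comparisons were 25.1%, 16.8% and 14.8%. The rule used these contrasts, so nothing is read from the counts.

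The 3 anergic libraries were not equally low. Their median signal over the members was 54.7, 48.5 and 38.3 in replicates 1, 2 and 3, while the 3 Teff libraries lay between 122 and 126 and the 3 Treg libraries between 123 and 136. The rule was therefore also applied with each anergic library left out, and the left-out library, which had no part in that choice, was then compared with the 8 libraries of the other groups. Without replicate 3 the rule selected 1223 peaks, and replicate 3 was below all 8 libraries in 1166 of them (95.3%, against 18.4% of all peaks). Without replicate 2 it selected 1762 peaks, and replicate 2 was below all 8 in 1508 (85.6%, against 16.6%). Without replicate 1 it selected 1972 peaks, and replicate 1 was below all 8 in 1314 (66.6%, against 16.4%). The median margin of the left-out library was 1.28, 0.83 and 0.61 in the same order, against -0.27, -0.27 and -0.25 over all peaks. The 8 other libraries had a part in choosing the peaks, and the shares over all peaks carry no such choice, so the 2 shares are not on equal terms and are given as a description. Replicate 1 had 21.5 M reads in peaks, replicates 2 and 3 had 68.8 M and 55.0 M, and the part of depth in the difference was not tested.

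Cell type markers were fixed for a check of the sorted cells. Of 8 CD4 T cell markers, 7 (all but Trac) had peaks assigned to them. Their summed signal was 39780 to 42360 in anergic and 36390 to 40040 in the other libraries. Markers of other cells had assigned peaks too, so the check does not by itself identify the cells. The members include 3 of 20 peaks assigned to Cd2, a co-stimulatory adhesion receptor, and 1 of 7 assigned to Cd3e, a chain of the T cell receptor complex. For other cells the sort could hold, B cell markers had peaks at 2 of 6 genes (Cd79b and Ebf1), with a summed signal of 368 to 466 in anergic, 377 to 515 in Teff, 537 to 562 in Treg and 638 to 670 in naive libraries, and 1 of the 5 peaks was a member. Myeloid markers had peaks at 3 of 6 genes (Spi1, Itgam and Cebpa), none a member, and their summed signal was 2942 to 3097 in anergic and 1146 to 1650 in the other libraries. CD8, NK and innate-like T cell markers had peaks at 3 of 6 genes, 1 of their 25 peaks a member, with overlapping ranges in anergic (20510 to 25840) and the other libraries (18810 to 28500). Erythroid and platelet markers had peaks at 3 of 6 genes, with 4469 to 4849 in anergic and 3201 to 4232 in the other libraries. Markers without an assigned peak included Cd79a, Ms4a1, Pax5, Lyz2, Csf1r, Cd14, Cd8a, Ncr1, Klrd1, Gata1, Pf4 and Hbb-bt, and the part of other cells in the members was not tested.

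Among members with at least 50 units of signal in each other group and no overlap between libraries, the largest margin belonged to an intergenic peak 10.2 kb upstream of Il4ra, the interleukin 4 receptor chain (sequence above). Its signal was 145 and 160 in naive, 91.4, 76.0 and 46.7 in Teff and 132, 89.4 and 95 in Treg libraries, but 9.95, 13.7 and 5.37 in the anergic libraries. All anergic libraries were thus far below the lowest other value. A peak in an intron of Manba, which encodes a lysosomal mannosidase, stood at 237 and 343 in naive, 157, 189 and 212 in Teff, 46.4, 18.4 and 28.2 in anergic and 355, 383 and 499 in Treg libraries. Here Treg cells were highest, and they were above Teff cells (log2 fold change 1.14, SE 0.27, limma adjusted p = 0.00245).

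A peak of 156 bases in an intron of St6galnac5, a sialyltransferase gene, was nearly level in the other groups, with 136 to 184 in naive, 118 to 167 in Teff and 127 to 151 in Treg libraries, and stood at 11.6, 53.2 and 18.1 in anergic libraries. Among members that met the terms for being named, the other peaks with the largest margins were assigned to Vtcn1 (an inhibitory B7 family ligand), Scaf11, Cldn14, Cdh16, B3galnt1, Chst11, Macroh2a3, Sh3pxd2a and Gramd3, with margins from 2.34 down to 2.21. The assignment is to the nearest start site only: the B3galnt1 peak lies in an intron of Ppm1l, 135 kb from the B3galnt1 start, and the Macroh2a3 peak lies 511 kb away. At the B3galnt1 peak anergic replicate 1 (272) stood apart from replicates 2 and 3 (30.6 and 77.2), all below the lowest other library (363).

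**Figure D2:**
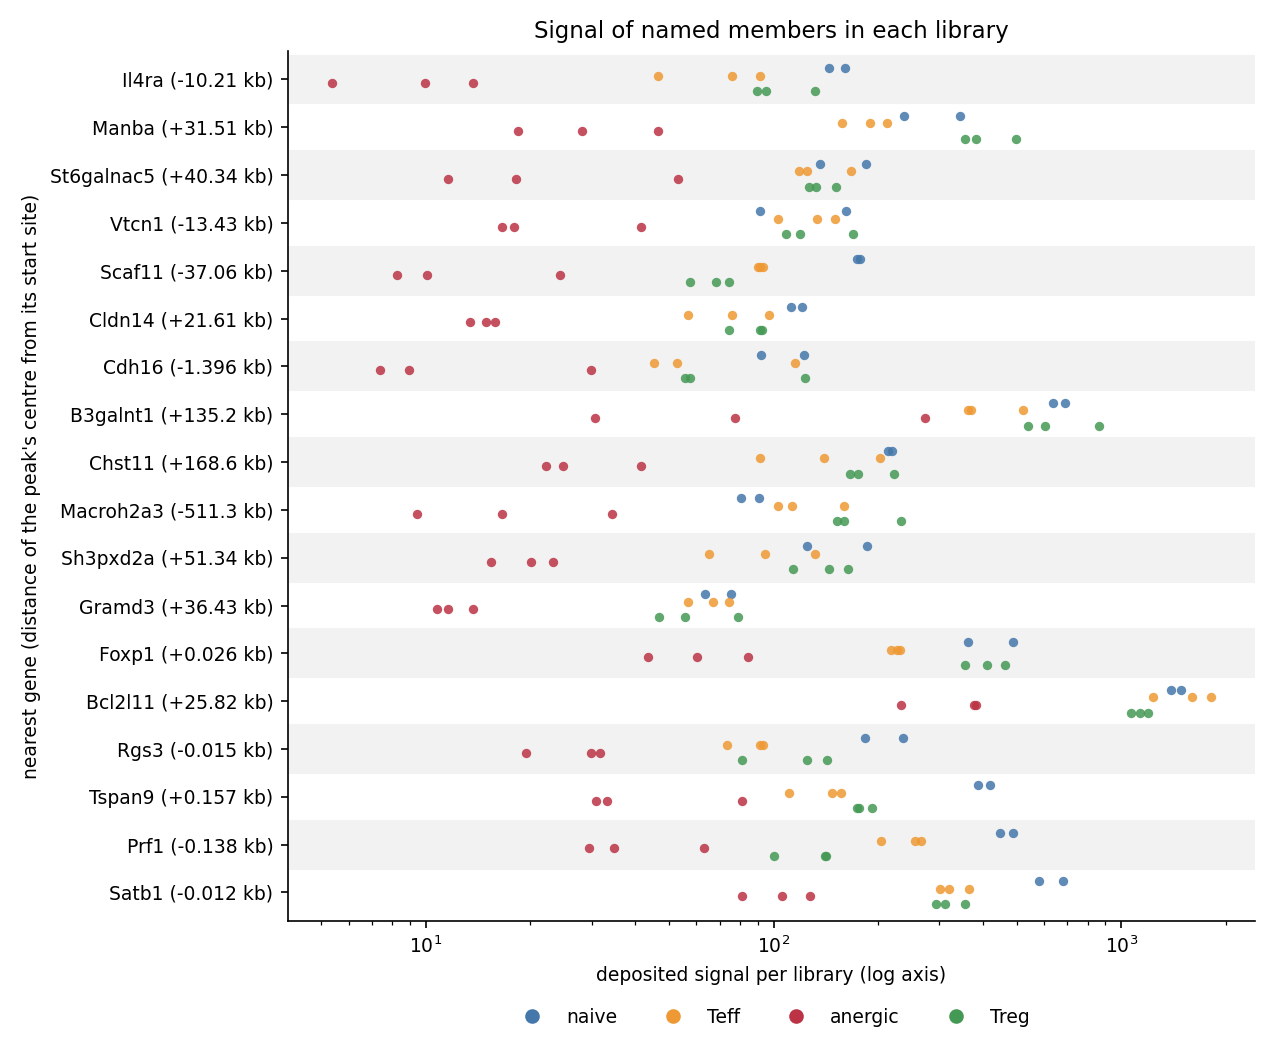
Deposited signal in each library (1 point per library, log axis) of 18 named members, by group. They are the 12 members and the 5 promoter members with the largest margins among those that met the terms for being named, and the Bcl2l11 intron peak. The signed distance from the nearest start site follows the gene's name. All 3 anergic points lie left of the 8 other points in each row, which the terms required of all but the Bcl2l11 peak.

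Promoters were seldom members, but those that were include genes of naive T cells. A peak over the 5′ UTR of Foxp1 (chr6:99435083-99435556, its centre 26 bases from a start site) had 489 and 362 units of signal in naive, 226, 217 and 232 in Teff, 462, 356 and 410 in Treg and 84.6, 60.1 and 43.7 in anergic libraries. Foxp1 restrains the growth and activation of naive T cells. This peak was also lower in Teff than in naive cells (log2 fold change -0.90, SE 0.24, limma adjusted p = 0.00491), whereas Treg against naive did not pass (-0.05, SE 0.24, limma adjusted p = 0.889). Foxp1 has several start sites, and its other peaks within 1000 bases of one were not members, with margins from -0.18 to 0.61.

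At a promoter peak of Satb1 (chr17:51826340-51826860), 12 bases from a start site, naive libraries had 581 and 678, Teff 320, 366 and 302, Treg 293, 356 and 312 and anergic libraries 106, 128 and 81.3. The order there was naive, then Teff and Treg without a detectable difference between them (log2 fold change -0.04, SE 0.18, limma adjusted p = 0.889), then anergic. Satb1 has several start sites, and a stronger member (chr17:51831349-51834074) lay 0.064 kb from another one. Its group means were 5645 in naive, 3155 in Teff, 1531 in anergic and 3702 in Treg cells, with a margin of 1.05. At the Prf1 promoter (chr10:61297549-61297847), the start of the gene for the pore-forming protein perforin, the values were 489 and 447 in naive, 255, 266 and 203 in Teff, 142, 141 and 100 in Treg and 63.0, 34.8 and 29.5 in anergic libraries. Promoters of Rgs3, a regulator of G protein signalling, and Tspan9, a tetraspanin, complete the 5 promoter members named for the largest margins, at 1.66 and 1.62.

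Satb1, a genome organiser that shapes chromatin in T cells, had the most members, 19 of its 21 peaks, and anergic cells were lowest at all 21. These members lay from 24.5 kb upstream to 79.3 kb downstream, 14 of them in introns, and their median margin was 1.38. Anergic libraries were below all 8 others at 14 of the 19. By limma, signal in Teff cells was lower than in naive cells at 14 of the 19 (17.4% of all peaks) and in Treg cells at 11 of the 19 (23.0% of all peaks), with none higher in either. The intronic Satb1 peak of 99 bases printed above, with a margin of 2.15, had 75.6 and 68.1 in naive, 21.5, 23.95 and 40.0 in Teff, 29.3, 23.4 and 22.8 in Treg and 1.66, 7.38 and 8.06 in anergic libraries, where 1.66 is 1 read.

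Lef1, the partner of TCF1 in naive T cells, had 16 members among 49 peaks, from 163 kb upstream to 43.7 kb downstream. The peak 83.8 kb upstream stood at 270 and 262 in naive, 254, 151 and 138 in Teff, 161, 221 and 153 in Treg and 73.0, 37.4 and 34.3 in anergic libraries. An intronic Lef1 peak 43.7 kb downstream (chr3:131199502-131200574) fell in steps, with group means of 1230 in naive, 482 in Treg, 220 in Teff and 80.0 in anergic cells. At a peak 52.8 kb upstream (chr3:131057219-131057712), Teff cells (757) were level with naive cells (712), Treg cells had 363 and anergic cells 139. Members of 1 gene thus differed in the order of the other groups.

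Bach2, a repressor that limits effector differentiation, had 18 members among 51 peaks, 17 of them upstream and as far as 174 kb from the start site. Near the start site the pattern was different: none of the 10 Bach2 peaks within 20 kb was a member, and anergic cells were lowest at none of them. At 9 of the 10, another group was at least 0.8 below anergic cells, which held for 7940 of all 25673 distal peaks. The member 154 kb upstream (chr4:32262924-32263427) had 413 and 304 in naive, 314, 211 and 290 in Teff, 403, 343 and 358 in Treg and 82.9, 87.5 and 63.1 in anergic libraries. By limma, Teff cells were lower than naive cells at 14 of the 18 members (17.4% of all peaks) and Treg cells at 4, a share near the 23.0% of all peaks. Treg cells were higher than Teff cells at 12 (14.4% of all peaks). One of these, 75.9 kb upstream (chr4:32341439-32341688), had 431 and 592 in naive, 96.2, 159 and 173 in Teff, 435, 741 and 622 in Treg and 66.3, 61.7 and 83.3 in anergic libraries.

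Foxp1 had 13 members among 56 peaks. By limma, 11 of the 13 were lower in Teff than in naive cells (17.4% of all peaks). Only 1 was lower in Treg than in naive cells, a share below the 23.0% of all peaks. At 13 other Foxp1 peaks another group was at least 0.8 below anergic cells. At the Foxp1 peak 22.4 kb from a start site (chr6:99050256-99051075), for example, group means were 62.8 in naive, 196 in Teff, 676 in anergic and 575 in Treg cells. Such peaks numbered 12 of 51 at Bach2 and 2 of 49 at Lef1, and there was none among the 21 at Satb1. With 7940 of all 25673 distal peaks of this kind, the shares at Foxp1 and Bach2 were not raised.

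**Figure D3:**
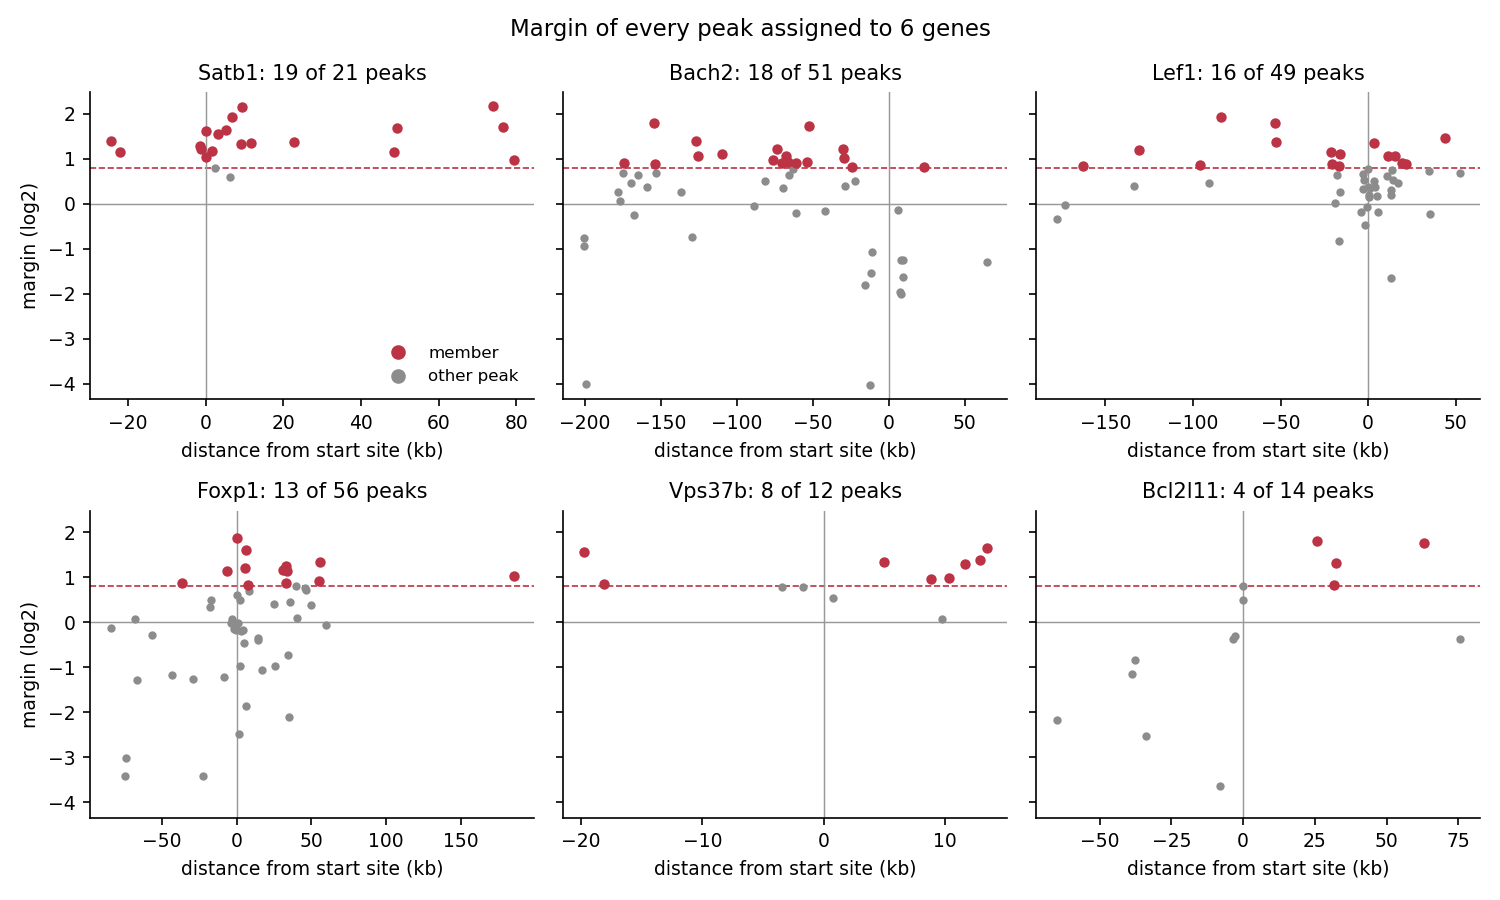
Margin of every peak assigned to Satb1, Bach2, Lef1, Foxp1, Vps37b and Bcl2l11 against the distance of its centre from the nearest start site of that gene (kb, negative is upstream). Red points are members, grey points the other peaks, and the dashed line is the margin of 0.8. Satb1 has 19 of 21 peaks above the line, and the Bach2 peaks within 20 kb of the start site all lie below 0.

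The other genes with the most members were Wwox with 10 of 27 peaks, Vps37b with 8 of 12, Smad7 with 8 of 13, Sh3pxd2a with 7 of 11, Rras2 with 7 of 9 and Tspan9 with 6 of 8, where Tspan9 has the largest margin of 10 genes with 6 members each. The Wwox members all lay 362 to 443 kb from its start site, and the 2 Wwox peaks within 20 kb of it were not members. Vps37b encodes a sorting protein of the endosome, and its peak of 5640 bases (chr5:124024492-124030131) had 4229 and 3253 in naive, 1653, 1540 and 1650 in Teff, 2621, 2063 and 1831 in Treg and 938, 534 and 527 in anergic libraries. Smad7, an inhibitor of TGF-beta signalling, had all 8 members downstream of its start, between 5.32 and 57.3 kb. Rras2 encodes a RAS-like GTPase used in T cell receptor signalling. None of the 7 Sh3pxd2a members, all intronic, passed the test in Teff or Treg against naive cells. The smallest limma adjusted p there was 0.0528, for a peak with means of 115 in naive, 63.1 in Teff and 66.7 in Treg cells.

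Bcl2l11 had 4 members among 14 peaks, all downstream of its start site, from 25.8 to 62.8 kb. In the largest, an intronic peak (chr2:128152778-128154012), signal was 1393 and 1486 in naive, 1598, 1810 and 1237 in Teff, 1135, 1198 and 1065 in Treg and 378, 381 and 232 in anergic libraries. Naive and Teff cells did not differ detectably there (log2 fold change 0.09, SE 0.19, limma adjusted p = 0.736). Treg cells were lower than Teff cells (-0.43, SE 0.17, limma adjusted p = 0.0491), whereas Treg against naive did not pass (-0.35, SE 0.19, limma adjusted p = 0.136). A 3′ UTR peak of Bcl2l11 (chr2:128159764-128160169) had a different order, with 286 and 251 in naive and 234, 213 and 208 in Treg libraries, but 28.4, 46.2 and 33.3 in Teff and 29.8, 4.74 and 16.1 in anergic libraries, which overlap.

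The peak over the Bcl2l11 start site missed the rule with a margin of 0.7953, at means of 3187 in naive, 2540 in Teff, 1466 in anergic and 2714 in Treg cells. A neighbouring peak at the start had means of 3778, 3292, 1980 and 2790 in the order naive, Teff, anergic and Treg. Upstream of Bcl2l11 none of 8 peaks was a member. At 5 of them another group was at least 0.8 below anergic cells, beside 7940 of all 25673 distal peaks. One of the 5, a peak 8.21 kb before the start (chr2:128117600-128118049), met the opposite rule with means of 38.8 in naive, 130 in Teff, 465 in anergic and 139 in Treg cells. The 14 Bcl2l11 peaks thus held both kinds, members downstream and a peak of the opposite rule upstream. Batf itself had no member among 10 peaks, and 2 of them met the opposite rule.

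Of the genes used for sorting, Nt5e (CD73) had 1 member among 5 peaks, with a margin of 0.89, and 1 other Nt5e peak met the opposite rule. By limma, 3 of the 5 Nt5e peaks were higher in anergic cells than in all 3 other groups (7.44% of all peaks). The member alone was lower than in all 3 (5.73% of all peaks). Cd44 (16 peaks, 2 of them meeting the opposite rule), Izumo1r (FR4, 7 peaks), Nrp1 (3 peaks) and Foxp3 (1 peak) had no member. Il2ra, which encodes CD25, had 3 members among 13 peaks, 5.50 to 7.08 kb upstream. At the peak chr2:11635901-11636351, Treg libraries had 320, 468 and 460, naive 165 and 194, Teff 56.8, 74.3 and 83.3 and anergic libraries 31.5, 20.6 and 46.4, so the sorted CD25+ cells were highest. Treg cells were above naive (log2 fold change 1.19, SE 0.31, limma adjusted p = 0.00358) and above Teff cells (2.52, SE 0.28, limma adjusted p = 5.57e-07).

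Members were also counted by gene lists, which cover a small share of them. Peaks were assigned to 400 of 432 listed genes, and 226 of the 1573 members belonged to a listed gene. Members were 95 of 12768 promoter peaks and 1477 of 25673 distal peaks. The lists were chosen with earlier results of these data known, so their shares are a description and not independent support. They were also not matched for their promoter peaks, so the share of all peaks is not an equal comparison for them. Beside the 4.08% of all peaks, 87 of 548 peaks (15.9%) of naive and quiescence factors were members, with a median margin of 0.08 over the list's peaks against -0.25 over all peaks. They came from 17 of the 27 genes with peaks, among them Satb1, Bach2, Lef1, Foxp1 and Klf2 (4 of 16 peaks). Other well-known genes of the list had 1 member each. These were Tcf7 (of 27 peaks), Ccr7 (of 18), Il7r (of 12), Foxo1 (of 15) and S1pr1 (of 23). The margin was 0.805 at the Tcf7 member and 0.809 at the Ccr7 member, and anergic cells were lowest at 12 Tcf7 and 7 Ccr7 peaks. The list's members were lower in Teff than in naive cells in 61 of 87, against 43.7% of all members and 17.4% of all peaks. They were lower in Treg than in naive cells in 38 of 87, against 36.9% of all members and 23.0% of all peaks, and none was higher in either. Since Satb1, Bach2, Lef1 and Foxp1 alone hold 66 of the 87, and peaks of 1 gene share a neighbourhood, the count is not one of independent events.

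Cytokine receptors and STAT factors had 25 members among 262 peaks (9.54%), among them peaks of Il21r, Jak1, Stat5b, Il2ra, Il4ra, Tgfbr2, Il7r and Ifngr1. TGF-beta and SMAD genes had 10 of 110 (9.09%), 8 of them at Smad7. Metabolism and mTOR genes had 14 of 156 (8.97%), among them Pik3ip1, an inhibitor of PI3 kinase, Slc2a3, a glucose transporter, and Sesn1, which restrains mTOR. BCL2 family and cell death genes had 11 of 130 (8.46%), at Bcl2l11, Tnfrsf10b, Fasl and Casp8. T cell receptor signalling genes had 25 of 401 (6.23%), at 11 genes including Grap2, Rasgrp1, Txk and Prkcq, with a median margin of -0.28, close to that of all peaks. CD8, NK and innate-like T cell genes had 7 of 37 peaks (18.9%), of which 5 were at Prf1 (5 of its 6 peaks), with 1 each at Klrk1 and Zbtb16. Adamts14, which neighbours Prf1, had 4 of 4 peaks in the set. Beside these counts, the opposite rule was met by 9 peaks of the cytokine receptor list, 5 of TGF-beta, 12 of metabolism, 4 of cell death, 23 of T cell receptor signalling and none of the CD8 and NK list.

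Other lists held few members, and the shares meeting the opposite rule are read beside its 6.01% of all peaks. Inhibitory receptors and exhaustion genes had 2 of 122 peaks (1.64%, at Vsir and Nt5e), whereas 37 of the 122 (30.3%) met the opposite rule. Follicular helper genes had 1 of 147 (0.680%, at Bcl6) against 43 (29.3%) by the opposite rule. NFAT, NF-kB, NR4A and EGR factors had 1 of 135 (0.741%, at Nfatc2) against 23 (17.0%). In the naive list only 10 of 548 (1.83%) met the opposite rule. Further lists lay on both sides of the 4.08% of all peaks, from 2.30% to 5.84%. Negative regulators and ubiquitin ligases had 9 of 232 (3.88%) and migration and adhesion genes 12 of 295 (4.07%). ETS, RUNX, GATA and E protein factors had 13 of 272 (4.78%) and chromatin regulators 9 of 154 (5.84%). AP-1, ATF and IRF factors had 4 of 123 (3.25%) and Treg genes 3 of 111 (2.70%). Th1, Th2 and Th17 genes had 3 of 102 (2.94%) and cell cycle genes 2 of 87 (2.30%). B cell genes had 1 of 11 peaks, at Cd79b, and myeloid genes (10 peaks) and erythroid and platelet genes (6 peaks) had none.

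The rule did not compare naive, Teff and Treg cells with each other, but each had to lie above anergic cells, which keeps out peaks with little signal in any of them. The 5th percentile of the naive level was 80.0 in members and 13.3 over all peaks. The shares over all peaks below are therefore a backdrop and not an equal comparison. Naive cells had the highest mean in 1134 members (72.1%, against 41.3% of all peaks), Teff cells in 244 and Treg cells in 195. By limma, 688 members (43.7%) were lower in Teff than in naive cells and 60 (3.81%) were higher, while over all peaks 17.4% were lower and 22.7% higher. The median log2 fold change was -0.70 in members and -0.03 over all peaks. For Treg against naive cells, 581 members (36.9%) were lower and 37 (2.35%) higher, against 23.0% and 22.3% of all peaks, with medians of -0.57 and -0.04. Both comparisons share the 2 naive libraries, and no test of the difference between members and other peaks was made.

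Between Treg and Teff cells the members' median lay near 0. Against Teff cells, 240 members (15.3%) were higher in Treg cells and 169 (10.7%) lower, beside 14.4% and 18.2% of all peaks, with a median log2 fold change of 0.08. Counts of calls depended on single libraries. Without naive replicate 1, 388 members were lower in Teff than in naive and 308 lower in Treg than in naive cells, with 38 and 22 higher. Without naive replicate 2, the members higher than naive numbered 29 in Teff and 21 in Treg cells. Without Teff replicate 2, 35 members were higher in Teff than in naive cells, and without Treg replicate 3, 22 were higher in Treg than in naive cells. Without Teff replicate 1 or Teff replicate 2, 100 members were lower in Treg than in Teff cells. In all of these the lower calls against naive cells outnumbered the higher ones.

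**Figure D4:**
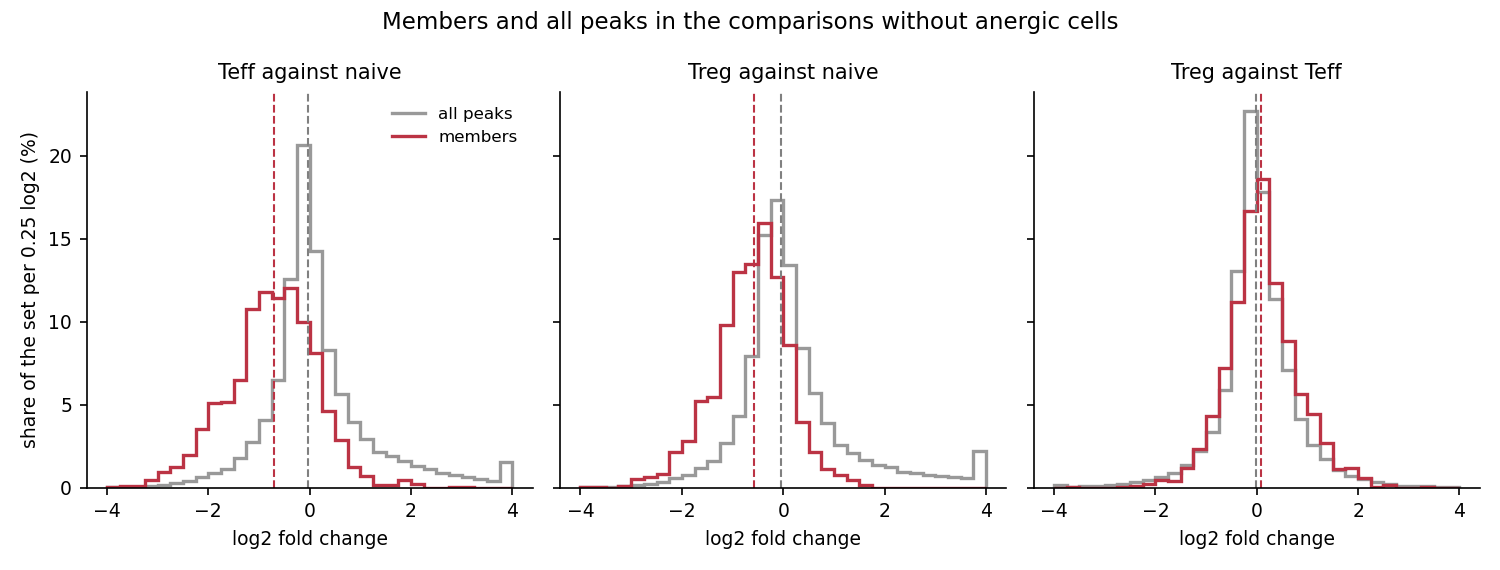
Distribution of log2 fold changes between naive, Teff and Treg cells for the members (red) and all tested peaks (grey), as the share of each set per 0.25 log2. Values beyond 4 are counted in the outermost bins and dashed lines mark the medians. The members' medians lie at -0.70, -0.57 and 0.08, those of all peaks at -0.03, -0.04 and -0.02.

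Large falls from naive to the other groups were found among the named members. A peak 76.0 kb upstream of Slc25a33, a mitochondrial carrier gene (chr4:149850056-149850579), had 925 and 792 in naive, 243, 275 and 374 in Treg, 47.1, 55.3 and 102 in Teff and 29.8, 25.8 and 20.8 in anergic libraries. Teff against naive gave a log2 fold change of -3.71 (SE 0.30, limma adjusted p = 2.45e-09). An intronic peak of Adamts14 (chr10:61232901-61233598) had 2633 and 2203 in naive, 334, 478 and 335 in Teff, 350, 445 and 243 in Treg and 105, 180 and 61.1 in anergic libraries. Intronic members of Fanci and Stpg1 were also highest in naive cells, with means of 783 and 345 against 56.6 and 24.2 in anergic cells.

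Other members were highest in Teff cells. An intronic peak of Gramd3, 15.9 kb from its start site, stood at 579, 581 and 408 in Teff libraries, against 65.0 and 48.8 in naive, 24.8, 95.8 and 30.4 in Treg and 31.5, 17.9 and 11.4 in anergic libraries. Teff against naive gave 3.17 (SE 0.46, limma adjusted p = 9.66e-06), and anergic and Treg libraries overlapped. A peak 8.99 kb downstream of Ccl3, a chemokine gene (chr11:83640157-83640614), had 557, 393 and 352 in Teff, 125 and 115 in naive, 136, 141 and 127 in Treg and 54.7, 92.2 and 57.8 in anergic libraries. A peak assigned to Irf1, an interferon response factor, lay in an intron of Gm12216, 16.3 kb from the Irf1 start site. It had means of 148 in naive, 390.5 in Teff, 84.1 in anergic and 161 in Treg cells, and Teff was above naive (1.39, SE 0.26, limma adjusted p = 0.000154). At the Ccl3 and Irf1 peaks every anergic library was below all others.

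Of the 195 members highest in Treg cells, those near Il2ra and Manba are given above, and others lay near Cd2, Flicr and Chaserr. The Flicr peak (chrX:7567418-7568041), in an intron of Ppp1r3f and 5.87 kb from the start of Flicr, a long noncoding RNA beside Foxp3, had 1194, 1049 and 1234 in Treg, 500, 469 and 345 in Teff, 364 and 352 in naive and 204, 198 and 158 in anergic libraries. Treg against naive gave 1.69 (SE 0.18, limma adjusted p = 1.15e-07). A Cd2 peak 9.47 kb upstream (chr3:101297210-101297615) had 676, 732 and 846 in Treg, 253, 430 and 318 in Teff, 210 and 255 in naive and 89.5, 120 and 98.1 in anergic libraries.

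Members lay away from promoters. Of the 1572 members on chromosomes, 95 (6.04%, 95% Wilson interval 4.97 to 7.33%) had their centre within 1000 bases of a RefSeq start site, against 33.2% of all peaks and 8.30% of the peaks that met the opposite rule. Introns held 52.3% (43.2% of all peaks) and intergenic DNA 42.1% (38.6%). Members were narrower than other peaks, with a median width of 265 against 370 bases, and 263 against 291 among distal peaks. The median GC content was 50.7% in distal members, 50% in all distal peaks and 46.6% in those meeting the opposite rule. Their median distance from a start site was 19.4 kb, against 15.1 kb for all distal peaks and 25.2 kb for the opposite rule.

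Members lay close to each other, and so did the peaks of the opposite rule. Another member stood within 10 kb of 571 members (36.3%), while 7.09% of all peaks had a member within 10 kb. Of the peaks of the opposite rule, 35.2% had another such peak within 10 kb. Any other peak stood within 10 kb of 80.0% of members and of 71.8% of all peaks. A peak of the opposite rule stood within 10 kb of 26 members (1.65%), against 7.01% of all peaks. Chains of at least 5 members with gaps of at most 25 kb numbered 26 and held 180 members. The longest chain, at Satb1 (chr17:51789172-51906961), held 20 members among 24 peaks in 118 kb, with anergic cells lowest at the other 4 peaks too. The next were Bach2 with 11 of 17 peaks in 52.1 kb, Foxp1 with 10 of 18 in 62.2 kb, Smad7 with 10 of 18, Vps37b with 9 of 13 in 41.4 kb, and Grap2, an adaptor of T cell receptor signalling, with 9 of 27 in 85.2 kb. At Prf1 and at Tspan9 all 6 peaks in the chain were members. A chain over Il21r and Il4ra held 7 members among 18 peaks in 58.9 kb, with anergic cells lowest at the other 11.

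The 1573 members were assigned to 1009 genes. Of these genes 727 had 1 member, 121 had 3 or more and 27 had 5 or more. Other peaks of these genes were also counted. Of 5287 other peaks at genes with a member, 7.07% were lower in anergic cells than in all 3 groups by limma, against 1.48% of 31567 peaks at genes without a member. Higher in all 3 were 4.09% and 8.38%. Since peaks with margins just under 0.8 count among the former, these shares describe the neighbourhoods and were not tested. Among genes with at least 5 peaks, 18.3% of the 568 with a member also had a peak of the opposite rule, against 30.8% of all 2027 such genes.

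Exact matches to 20 short motifs, read on both strands in the central 200 bases, were counted in the 1477 distal members, in all 25673 distal peaks and in the 2121 distal peaks of the opposite rule. Motifs can overlap, a match is not a bound site, and intervals are 95% Wilson intervals. The ETS motif ACAGGAAG was present in 14.96% of distal members, 8.64% of all distal peaks and 5.99% of the opposite set. The RUNX motif TGTGGTT was present in 14.7%, 11.5% and 10.5%, and the GATA motif AGATAAG in 4.74%, 2.94% and 3.07%. E-box matches, bound by E proteins and ZEB1, were present in 21.1%, 17.95% and 12.9% for CAGGTG and in 17.0%, 13.7% and 11.7% for CAGCTG. The STAT motif TTCCNGGAA was rare, at 1.42%, 0.682% and 0.472%.

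The AP-1 motif TGANTCA, the site of JUN, FOS and BATF dimers, ran the other way. It was present in 73 distal members (4.94%, interval 3.95 to 6.17%), in 11.7% of all distal peaks and in 33.0% (interval 31.0 to 35.0%) of the opposite set. The NFAT motif TGGAAAA was present in 19 members (1.29%), 4.75% of all distal peaks and 15.7% of the opposite set. An AP-1 or NFAT match was found in 6.23% of distal members and 44.5% of the opposite set, and an ETS or RUNX match in 28.0% and 15.8%. The CTCF motif AGGGGGC was present in 3.11% of members, 7.05% of all distal peaks and 2.26% of the opposite set, and the SP motif GGGCGGG in 3.59%, 6.36% and 4.10%, so both sets were below all distal peaks. The TCF/LEF motif CTTTGAT was found in 4.94% of members, 4.76% of all distal peaks and 7.69% of the opposite set, and in the central 300 bases the ratio of members to all distal peaks fell to 0.954. Among distal peaks of 200 to 400 bases, a restriction added after the data had been seen, AP-1 was present in 5.32% of members and 13.4% of all peaks and ETS in 17.1% and 10.1%.

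**Figure D5:**
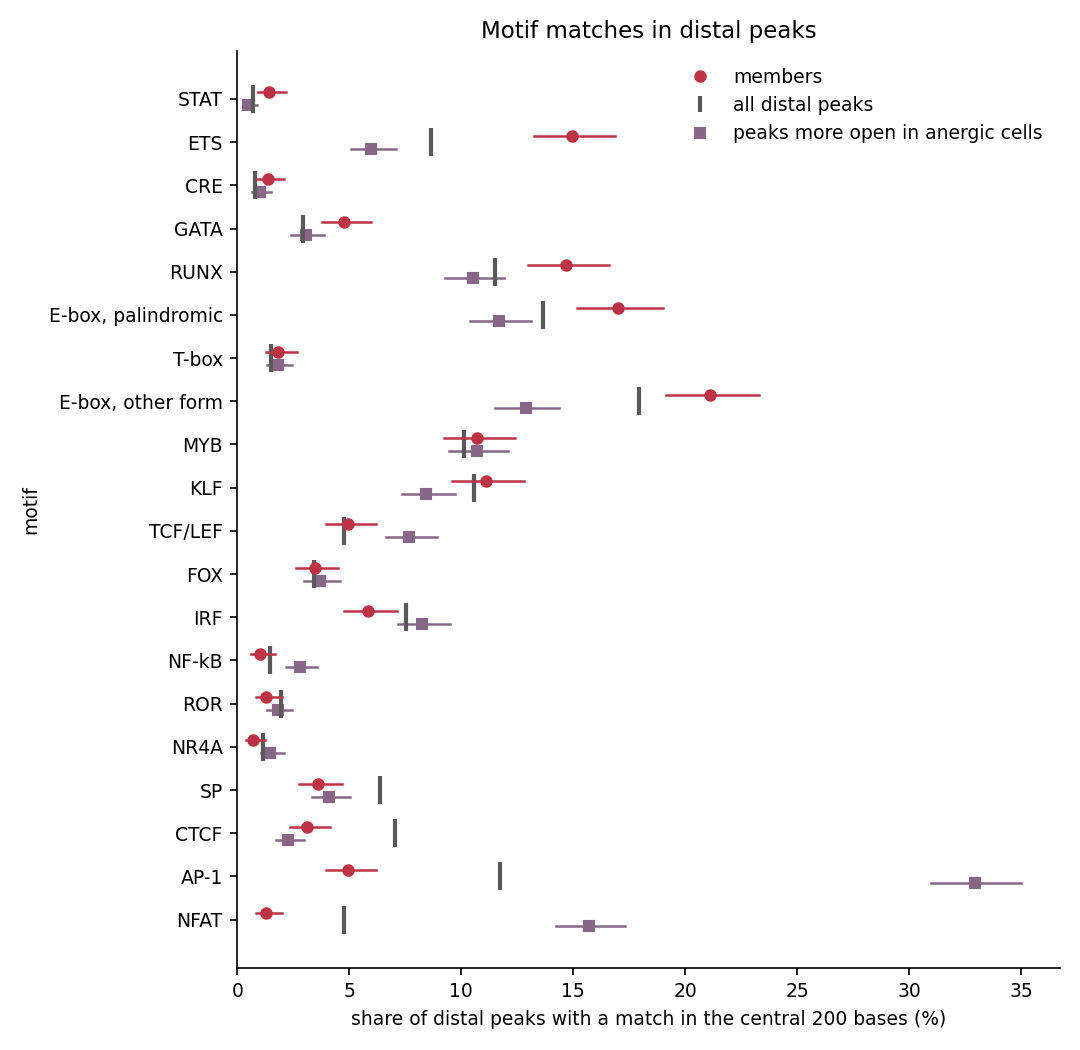
Share of distal peaks with an exact motif match in the central 200 bases, for the members (red circles), all distal peaks (grey ticks) and peaks at least 0.8 higher in anergic cells than in each other group (purple squares), with 95% Wilson intervals for the first and last. Motifs are ordered by the ratio of members to all distal peaks, and the palindromic E-box is CAGCTG and the other form CAGGTG. ETS stands at 14.96% against 8.64% and AP-1 at 4.94% against 11.7%.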

How the data were processed

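ATAC-seq was measured in 11 libraries. Per the series' design text, the authors trimmed reads with Trimmomatic 0.38.1, aligned them to mm10 with Bowtie2 2.3.3.1, called peaks per sample with Genrich 0.5, which removed PCR duplicates and adjusted for transposase cut sites, left out mitochondrial and blacklisted regions, and merged them into 38509 consensus peaks with DiffBind 2.10.0. The table deposited by the authors holds 1 signal value per peak and library. Each column is a whole number of reads times a factor of 0.527 to 2.13: 100% of values divided by the column's smallest value were whole within 0.01. How that factor was set is not given in the sources used here. Reads in peaks so recovered were 14.7 to 68.8 M per library. No 0 occurs, and 17 to 368 peaks per library stand at 1 read, so it is not known whether peaks without reads were set to 1.

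Because the values are scaled, the main test was limma-trend (limma 3.58.1, R 4.3.3) on log2(signal + 1), with all 11 libraries in 1 fit, group as the only term, and the filterByExpr filter of edgeR 4.0.16, which left 38493 peaks. Benjamini-Hochberg adjusted p-values run over these peaks, with a threshold of 0.05. Fold changes are on this log2 scale, which understates changes of low peaks. The fit, the rule and the motif search were tested on simulated data. Alternatives were pseudocounts of 8 and 0.5, other scalings, margins of 0.6 and 1, edgeR and DESeq2 1.42.0 on the recovered reads, a replicate block and each library left out.

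Peaks were given to the gene with the nearest of 45756 RefSeq start sites (GRCm38), measured from the peak's centre, and coordinates are as the file gives them. Members, gene lists and motifs were chosen with earlier results of these data known. Named are the 12 members with the largest margin, the 10 genes with the most members, 5 promoter members, up to 3 genes per list, Bcl2l11, Batf and the sort markers, and for each of the 3 contrasts among naive, Teff and Treg the members with the 3 largest rises and falls. Peaks of the first, the promoter and the contrast kind needed a mean signal of at least 50 in each other group and a nearest gene that is not a predicted or clone-named gene, so larger changes exist outside them. The first and the promoter kind also needed every anergic library below every other. Single peaks of the genes so named, and runs of CA, were picked after their values or sequences had been seen.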

Additional observations from a re-analysis of the deposited data

How the results depend on the processing

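The number of members was 2485 with a margin of 0.6 and 955 with a margin of 1, and 1223 to 1972 when each library was left out in turn, the lowest without anergic replicate 3 and the highest without anergic replicate 1. The share at promoters was 7.615% with a margin of 0.6, 3.69% within 500 bases of a start site and 5.57 to 8.35% over the left-out libraries. With a pseudocount of 8, the left-out anergic library was below all 8 others in 70.8%, 89.2% and 97.2% of the peaks chosen without replicate 1, 2 and 3. Members higher in Treg than in naive cells numbered 57 after scaling by total reads in peaks and 58 in a fit of the 2 groups alone. Over the left-out libraries, members higher and lower in Teff than in naive cells ranged from 29 to 66 and 388 to 758, in Treg than in naive cells from 21 to 46 and 308 to 650, and in Treg than in Teff cells from 181 to 276 and 100 to 184. Leaving out a naive library leaves 1, which is then assumed to vary like the other groups. Scaling by total reads in peaks moved the median log2 fold change of Treg against naive over all peaks from -0.04 to 0.12, and the calls over all peaks from 8568 higher and 8867 lower to 10709 and 5721. In the members the calls under that scaling were 57 higher and 423 lower. Pairing by replicate number was not evident (correlations of same-numbered libraries' deviations from -0.11 to 0.16, over 0.1 in 4 of 15 pairs). The deviations were taken from the means of groups of 2 or 3 libraries, which ties the correlations to each other, so this check cannot exclude pairing. With the replicate block, members higher and lower were 74 and 631 (Teff against naive), 44 and 543 (Treg against naive) and 253 and 191 (Treg against Teff). By edgeR they were 64 and 740, 49 and 557, and 281 and 149, and by DESeq2 71 and 709, 45 and 587, and 271 and 181. All 360 recomputed values of the peaks named for those contrasts stayed past the threshold in their direction, and 2554 of 2700 recomputed margins of named members stayed at 0.8 or more. The exception in direction was a Foxp1 peak at position 99441295 of chromosome 6, whose margin ranged from -0.15 without anergic replicate 3 to 2.19 without anergic replicate 1. The ratio of members to all distal peaks crossed 1 for TCF/LEF (0.954) and FOX (0.996) with 300 bases, and for TCF/LEF (0.926), T-box (0.607) and MYB (0.928) in peaks of 200 to 400 bases, the latter an alternative chosen after seeing the data. The cause was not tested in any of these cases.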

Other observations

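Runs of at least 8 CA units, looked for after 3 of the first sequences printed had shown one, stood in the central 200 bases of 98 of 1477 distal members (6.63%, 95% Wilson interval 5.48 to 8.02%), of 856 of 25673 distal peaks (3.33%) and of 45 of 2121 distal peaks more open in anergic cells (2.12%). Among the 12 members named for the largest margins, 4 held one, near Il4ra, Manba, Vtcn1 and B3galnt1. In distal peaks of 200 to 400 bases the shares were 8.68%, 3.77% and 2.22%. The share was 2.75% where another group was at least 0.8 below anergic cells, 2.92% at margins from -0.8 to 0, 3.96% from 0 to 0.8, 6.28% from 0.8 to 1, 6.93% from 1 to 1.5 and 6.63% above. Runs of 8 GA units stood in 1.08% of distal members and 1.08% of all distal peaks, and runs of 12 A in 2.78% and 2.57%. Distal members with a CA run had a median signal of 232 in naive, 130 in Teff, 50.7 in anergic and 161 in Treg cells, against 178, 121, 45.04 and 123 in those without. How reads that align to several repeats were counted is not given in the sources used here, and its part in the difference was not tested.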
